A study of Homo sapiens with 4 samples.

Results

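Integrins, laminins and collagens, together with the matrix proteins they bind, were examined as a set of 44 genes taken by name: 12 integrin subunits, 8 laminin chains, 14 collagen chains, 5 matrix glycoproteins, 3 other basement membrane proteins and 2 lysyl oxidases. Of these, 42 were among the 16813 genes with a value in at least 1 library, 41 passed the filter on low counts that left 13148 genes, and COL4A2 and LAMA1 were not analysed here. The libraries came from PC9, a human lung adenocarcinoma line with an activating EGFR mutation, and from PC9OR, a derivative of PC9 resistant to osimertinib, an inhibitor of mutant EGFR. Each line had 2 biological replicates, 4 libraries in all, of total RNA prepared with a stranded kit. Both lines were labelled wild type in genotype and were kept in the same serum-containing medium, with no drug named in the labels. PC9OR is 1 resistant line, so a difference tied to resistance and any other difference between these cultures cannot be told apart.

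Integrins are receptors made of an alpha and a beta subunit that link the cytoskeleton to the matrix outside the cell. In epithelia, that matrix is first the basement membrane, a sheet of laminins and type IV collagen joined by nidogens and by heparan sulphate proteoglycans such as perlecan and agrin. Fibrillar collagens, fibronectin and tenascin lie beyond it, and lysyl oxidases crosslink collagen. Contact with matrix through integrins signals within epithelial and tumour cells to kinases of focal adhesions.

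The sums of expected counts, the estimated reads per gene, were 23201307 and 29062064 in the PC9 replicates and 31948974 and 32203998 in the PC9OR replicates. Levels are given as CPM, counts per 1000000 counts of the library after TMM scaling, which moved the totals by little. A limit of 3 counts, the smallest value taken as detected, corresponded to 0.0932 to 0.129 CPM and covers counting error only. The PC9 replicates varied more than the PC9OR replicates, with biological coefficients of variation of 0.242 and 0.104. Across 11952 genes, the log2 difference between lines fell with transcript length (rank correlation -0.38), and so did that between PC9 replicate 2 and replicate 1 (-0.44), whereas the PC9OR replicates showed no such relation (0.00). These correlations are across genes of the same libraries and describe them only. The members are long, with a median of 5836 bases against 2989 bases over all genes tested. The called members are therefore set beside the median of the 200 tested genes nearest in length. Members are also given from a fit with length offsets. For each library, the log2 deviation of every gene from its mean over the libraries was smoothed against length, and this curve was removed. Any difference between the lines that follows length is removed with it.

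**Figure D1:**
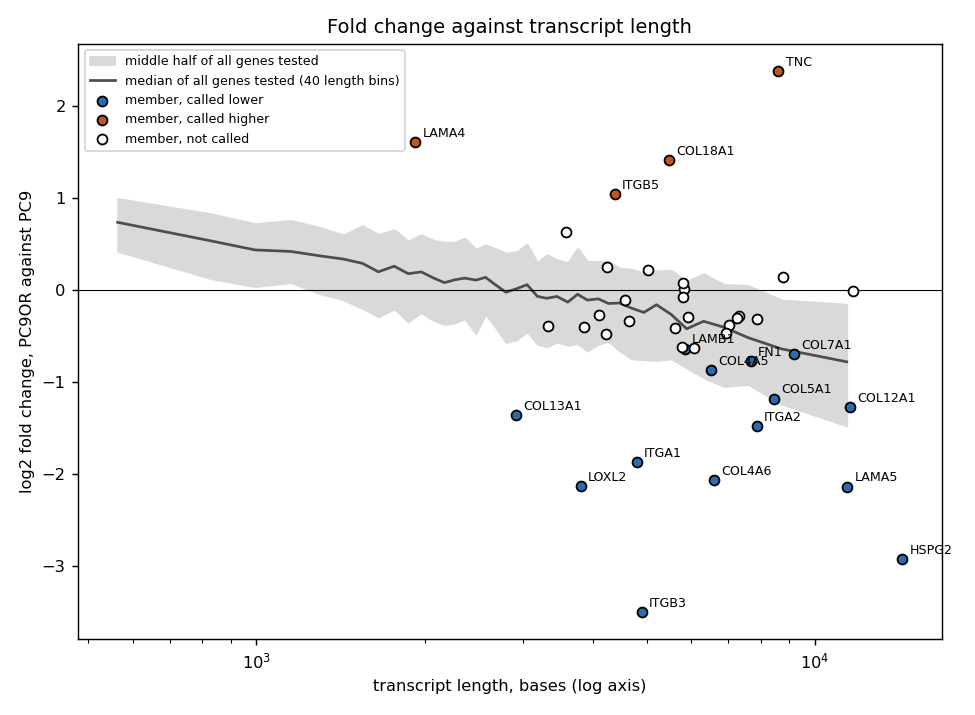
Each member's log2 fold change, PC9OR minus PC9, against transcript length in bases (log axis), drawn over the median (line) and the quartiles (band) of 40 bins of all genes tested, ordered by length. The bin medians run from 0.74 in the shortest bin (median 564 bases) to -0.78 in the longest (median 11406 bases), and TNC, COL18A1, LAMA4 and ITGB5 lie above this trend while ITGB3, LOXL2, HSPG2 and LAMA5 lie below it.

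In PC9OR cells 14 members were lower and 4 were higher than in PC9 cells (edgeR's quasi-likelihood test, Benjamini-Hochberg adjusted over all genes tested, called under 0.05), and 23 did not pass the test. The lower members were the collagen-binding integrin subunits ITGA1 and ITGA2, ITGB3, the laminin chains LAMA5 and LAMB1, 6 collagens (COL4A5, COL4A6, COL5A1, COL7A1, COL12A1 and COL13A1), FN1, HSPG2 and LOXL2, and the higher members were ITGB5, LAMA4, COL18A1 and TNC. Of all genes tested, 20.8% were called lower and 15.6% higher, and of the 4624 genes that were nearest in length to a member, 31.7% and 9.84%. The 14 lower members of 41 are thus a share near that of genes of like length. The median log2 fold change of the members was -0.39, beside 0.01 over all genes tested and -0.25 over the genes nearest in length. In bulk RNA, fewer cells of a type and less RNA per cell cannot be told apart. Of the 18 calls, 14 were over 2-fold, and the share of all called genes over 2-fold was not counted.

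With length offsets the balance between directions changed. Then 10 members were lower and 7 higher, beside 21.9% and 22.4% of the genes nearest in length and 18.4% and 20.0% of all genes tested. LAMB1, COL5A1, COL7A1 and FN1 no longer passed the test in that fit, ITGA5, ITGB8 and LAMB2 passed it as higher, and 14 members were called in both fits. The median of the members was then -0.06, beside 0.07 over all genes tested. A group of 13 called members passed in each of the 15 other fits tried. They were ITGA1, ITGA2, ITGB3, ITGB5, LAMA4, LAMA5, COL4A6, COL12A1, COL13A1, COL18A1, TNC, HSPG2 and LOXL2. All fits draw on the same libraries. The shares of all genes called in both fits, or passing in every fit, were not counted.

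**Figure D2:**
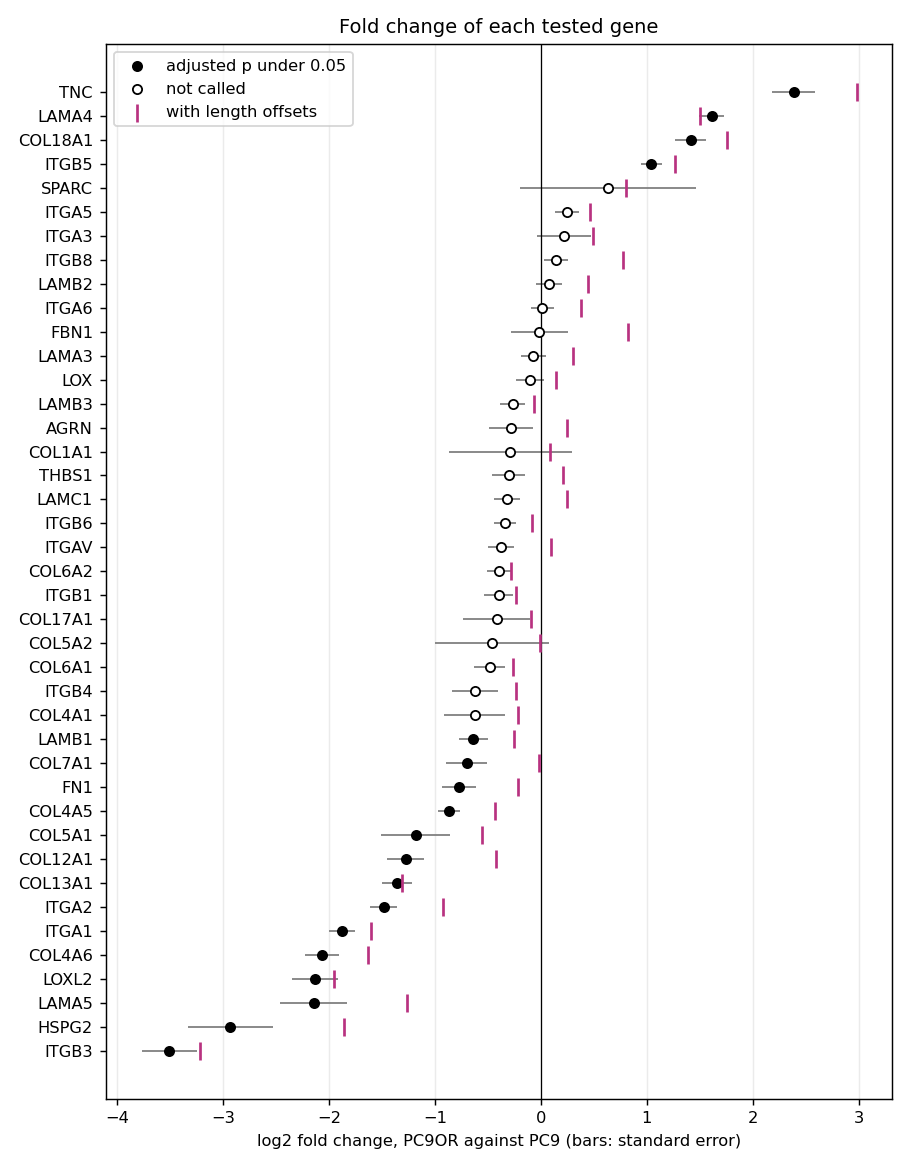
Log2 fold change, PC9OR minus PC9, with its standard error as a bar, for the 41 members tested (filled points passed the test, open points did not), and the value with length offsets as a vertical tick. TNC has the highest value in both fits (2.39 and 2.98) and ITGB3 the lowest (-3.51 and -3.22).

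Among the integrin alpha subunits, ITGA1 and ITGA2, each of which pairs with ITGB1 to bind collagen, were lower in PC9OR cells. ITGA2 (chromosome 5, 52285170 to 52390609, plus strand, GRCh37) stood at 1053 and 944 CPM in the PC9 replicates and at 378 and 336 CPM in the PC9OR replicates. Both PC9 values were above both PC9OR values. Its log2 fold change was -1.48 ± 0.13 (SE, edgeR adjusted p = 0.00500), against a median of -0.55 for genes of like length, and -0.92 with length offsets. ITGA1, its neighbour on chromosome 5 with 30130 bases between the genes, stood at 50.6 and 48.0 CPM in PC9 and at 12.9 and 14.0 CPM in PC9OR. The groups lay far apart beside the small gaps within them. The log2 fold change of ITGA1 was -1.88 ± 0.12 (SE, edgeR adjusted p = 0.00372), against -0.24 for genes of like length, and -1.60 with length offsets. The 10 tested genes on either side of the pair had medians of 0.21 and 0.38, and of those 20 genes 2 were called lower and 3 higher, beside 20.8% and 15.6% of all genes tested.

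The other alpha subunits did not pass the test. ITGA6, a laminin receptor subunit, was among the most abundant members and stood at 1011 and 1078 CPM in PC9 and at 1082 and 1025 CPM in PC9OR, with overlapping groups and a log2 fold change of 0.01 (SE 0.11). ITGA3, another laminin receptor subunit, stood at 170.2 and 218 CPM in PC9 and at 276 and 174 CPM in PC9OR, and the gap within either line exceeded that between the line means. ITGAV, the partner of several beta subunits, had a log2 fold change of -0.38 (SE 0.12, edgeR adjusted p = 0.0646), and 0.09 with length offsets. ITGA5, the fibronectin receptor subunit, stood at 138 and 126 CPM in PC9 and at 163 and 151 CPM in PC9OR. Its groups did not overlap, yet it was called with length offsets (log2 fold change 0.47, edgeR adjusted p = 0.0190) and not without them (0.25, edgeR adjusted p = 0.136).

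Of the 6 beta subunits, ITGB3 was lower, ITGB5 was higher and the other 4 did not pass the test. Of all genes tested, 20.8% were lower and 15.6% higher. ITGB3, a receptor subunit for vitronectin and fibrinogen, stood at 11.3 and 9.43 CPM in PC9 and at 0.874 and 0.938 CPM in PC9OR. It was 11.4-fold lower, with a log2 fold change of -3.51 ± 0.26 (SE, edgeR adjusted p = 0.00434) against -0.24 for genes of like length, and -3.22 with length offsets. ITGB5, which also binds vitronectin, stood at 87.7 and 88.3 CPM in PC9 and at 182 and 181 CPM in PC9OR. The replicates of each line were nearly equal, and the groups lay apart. It was 2.06-fold higher, with a log2 fold change of 1.04 ± 0.10 (SE, edgeR adjusted p = 0.00547), against -0.04 for genes of like length, and 1.27 with length offsets. On the length-scaled FPKM values, ITGB5 went from 14.5 and 14.3 in PC9 to 29.3 and 28.6 in PC9OR, while ITGB3 went from 1.66 and 1.36 to 0.130 and 0.130.

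ITGB6 and ITGB8, subunits of integrins that activate latent TGF-beta, did not pass the test without offsets. ITGB6 stood at 179 and 192 CPM in PC9 and at 149 and 144 CPM in PC9OR (log2 fold change -0.34, edgeR adjusted p = 0.0569, and -0.09 with length offsets). ITGB8, at 56.8 and 51.5 CPM in PC9 and 60.0 and 59.3 CPM in PC9OR, had a log2 fold change of 0.14 (edgeR adjusted p = 0.364), where genes of like length had a median of -0.65, and it was called higher with length offsets (0.77, edgeR adjusted p = 0.00718). ITGB1, the common partner of most alpha subunits, had the highest FPKM of any member in every library, 187 and 222 in PC9 and 148 and 154 in PC9OR. Its log2 fold change was -0.40 (SE 0.14, edgeR adjusted p = 0.0727), and -0.23 with length offsets. With offsets for length and GC content ITGB1 passed as lower (-0.39, edgeR adjusted p = 0.0305). ITGB4, the partner of ITGA6 in hemidesmosomes, stood at 289 and 191 CPM in PC9 and at 165 and 146 CPM in PC9OR, with a log2 fold change of -0.62 (edgeR adjusted p = 0.0766), and -0.24 with length offsets.

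**Figure D3:**
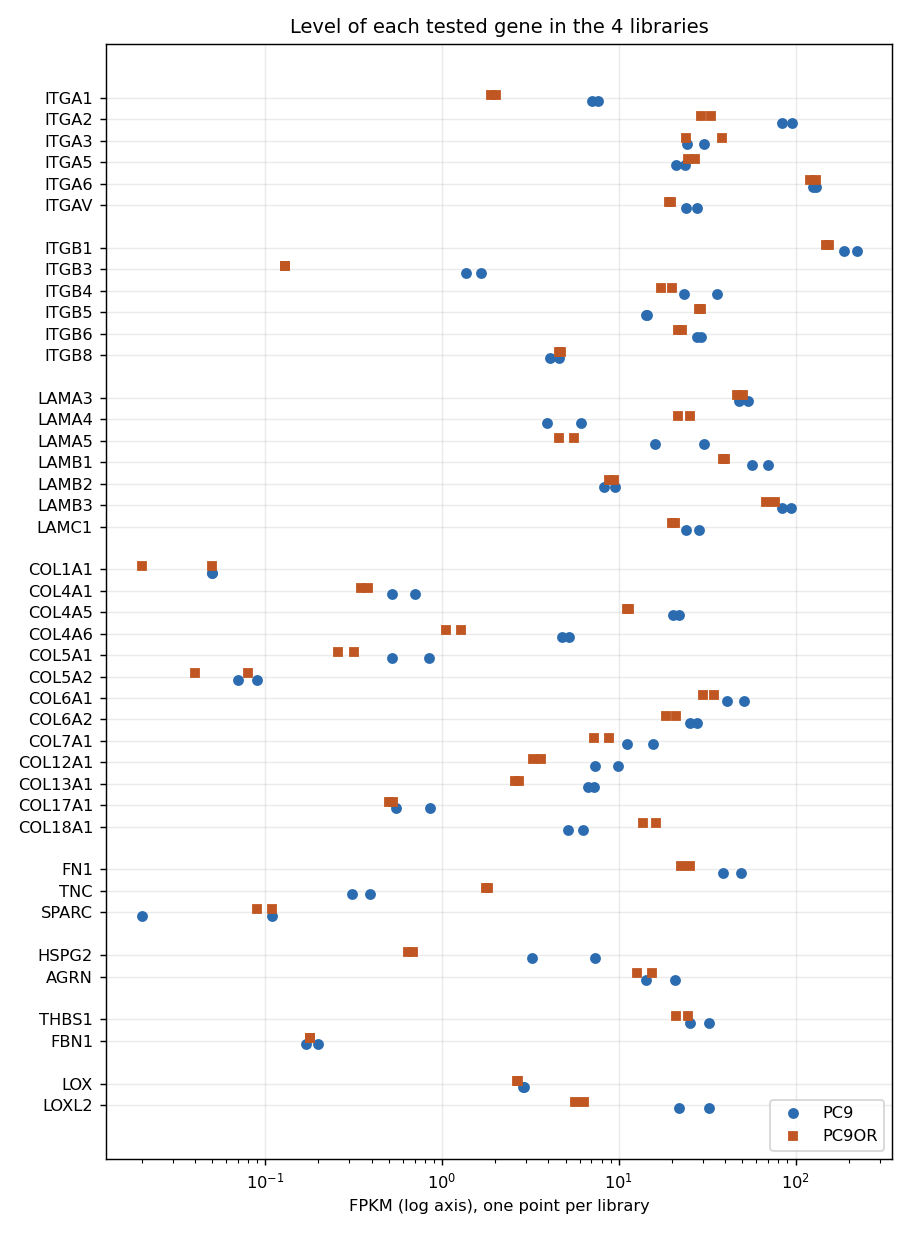
FPKM (log axis) of the 41 members tested in each of the 4 libraries, grouped by role, with PC9 as circles and PC9OR as squares. The levels of the called genes ITGB3, TNC, LAMA4, COL4A6, LOXL2 and HSPG2 fall into groups that do not overlap. So do those of some genes that were not called, such as ITGB1 and LOX, while ITGA6, LAMA3 and LAMB2 have overlapping groups.

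Of the 7 laminin chains tested, LAMA4 was higher and LAMA5 and LAMB1 were lower. Of the genes nearest in length to any member, a pool not matched to laminins alone, 9.84% were higher and 31.7% lower. LAMA5 (chromosome 20, 60883011 to 60942368, minus strand, GRCh37), the main alpha chain of mature epithelial basement membranes, stood at 487 and 263 CPM in PC9 and at 92.3 and 77.4 CPM in PC9OR. The PC9 replicates were far from each other, but both lay above both PC9OR replicates. The log2 fold change of LAMA5 was -2.14 ± 0.32 (SE, edgeR adjusted p = 0.0111), against -0.74 for genes of like length, and -1.27 with length offsets. LAMA4 (chromosome 6, 112429134 to 112576141, minus strand, GRCh37), an alpha chain best known from vessels and mesenchyme, stood at 15.1 and 15.3 CPM in PC9 and at 46.3 and 46.8 CPM in PC9OR. The replicates of each line were almost equal. It was 3.05-fold higher (log2 fold change 1.61 ± 0.12 SE, edgeR adjusted p = 0.00401), against 0.18 for genes of like length, and 2.82-fold higher with length offsets. Both comparisons took the mean of its transcript length over the libraries, 1926 bases, although that length differed between libraries.

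LAMA4 also stood apart in the deposited transcript length, which weights the isoforms of a gene by their estimated use. The length was 2848 and 1864 bases in PC9 and 1401 and 1592 bases in PC9OR, over 5 transcripts in the authors' annotation. The groups did not overlap, although the PC9 replicates differed by more than the nearest values of the 2 lines. In the GENCODE annotation, its 15 coding transcripts run from 539 to 7228 bases and 4 exceed 5000 bases, so the deposited lengths were below those of the long transcripts in every library. Which transcripts the reads came from was not tested, and the FPKM of LAMA4 (3.92 and 6.09 in PC9, 25.3 and 21.7 in PC9OR) moved more than its CPM, since FPKM is divided by this length. Of the 21 members with several transcripts, 16 had lengths that moved by under 1% among the libraries. The others beside LAMA4 were COL4A1 (5811 to 6269 bases), FN1 (7354 to 7900 bases), LAMA3 (5745 to 5925 bases) and LOX (4520 to 4616 bases).

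**Figure D4:**
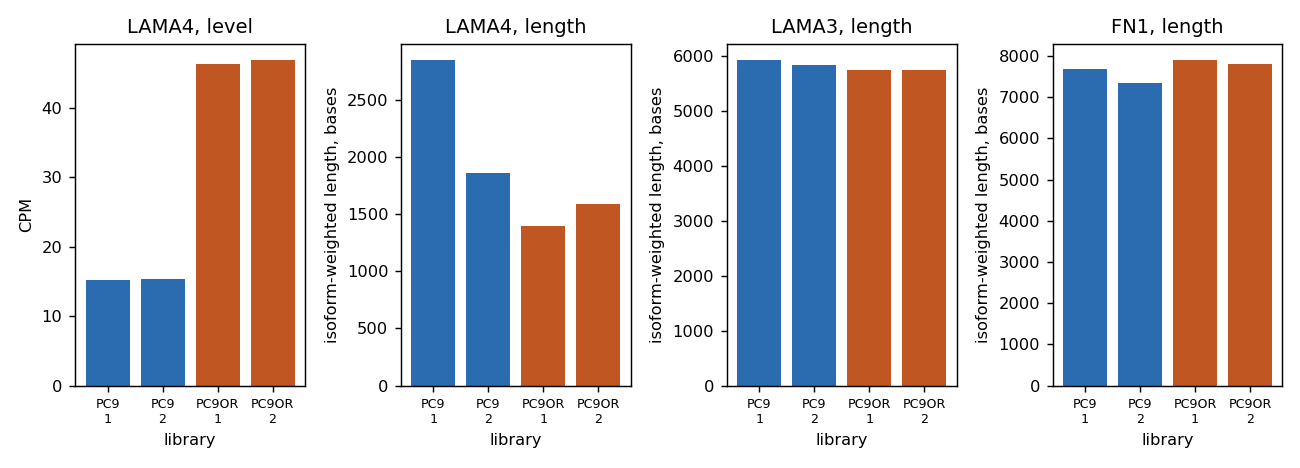
CPM of LAMA4 and isoform-weighted transcript length in bases of LAMA4, LAMA3 and FN1, as bars from 0 for each of the 4 libraries. LAMA4 has a level of 15.1 and 15.3 CPM in PC9 against 46.3 and 46.8 CPM in PC9OR, and its length falls from 2848 bases in PC9 replicate 1 to 1401 bases in PC9OR replicate 1, while those of LAMA3 and FN1 move little.

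LAMB1 stood at 569.5 and 469 CPM in PC9 and at 335 and 333 CPM in PC9OR. It passed the test without offsets (log2 fold change -0.64, edgeR adjusted p = 0.0231, genes of like length -0.40) but not with them (-0.26, edgeR adjusted p = 0.0861). Without PC9OR replicate 1 or replicate 2, its adjusted p was 0.176 or 0.190. LAMA3 and LAMB3, chains of the laminin that anchors hemidesmosomes, stood at 387 to 443 CPM and 404 to 536 CPM over the 4 libraries, with log2 fold changes of -0.07 and -0.27, and 0.30 and -0.06 with length offsets, that did not pass. LAMC1, the gamma chain of most laminins, had a log2 fold change of -0.32 (edgeR adjusted p = 0.0919), and 0.24 with length offsets. With offsets for length and GC content LAMA3 and LAMC1 passed as higher (0.40 and 0.35, edgeR adjusted p = 0.0202 and 0.0304), while LAMC1 passed as lower without PC9 replicate 1 or 2 (-0.22 and -0.43, edgeR adjusted p = 0.0449 and 0.00573). LAMB2 had overlapping groups, 76.5 and 67.9 CPM in PC9 and 78.0 and 74.1 CPM in PC9OR. It was called higher with length offsets (0.45, edgeR adjusted p = 0.0228) and with length and GC offsets (0.58, edgeR adjusted p = 0.0161). It also passed with length offsets and the replicate block (0.45, edgeR adjusted p = 0.0187), but in no other fit.

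Among 13 collagen chains tested, 6 were lower and COL18A1 was higher in PC9OR cells. Of the genes nearest in length to any member, a pool not matched to collagens alone, 31.7% were lower and 9.84% higher. With length offsets 4 collagen chains were lower and COL18A1 was higher, beside 21.9% and 22.4% of that pool. COL4A6 and COL4A5 encode chains of basement membrane type IV collagen and lie head to head on chromosome X with 340 bases between them. COL4A6 stood at 44.1 and 49.1 CPM in PC9 and at 9.93 and 12.3 CPM in PC9OR. COL4A6 had a log2 fold change of -2.07 ± 0.16 (SE, edgeR adjusted p = 0.00457), against -0.39 for genes of like length, and -1.64 with length offsets. COL4A5 stood at 199 and 189 CPM in PC9 and at 104 and 109 CPM in PC9OR (-0.87 ± 0.10 SE, edgeR adjusted p = 0.00772), against -0.39 for genes of like length, and -0.44 with length offsets. Neither gene had overlapping groups, and COL4A5 had adjusted p values of 0.0849 and 0.0666 without PC9OR replicate 1 or 2. The 10 tested genes on either side of the pair had medians of 0.44 and 0.14, and of those 20 genes 3 were called lower and 6 higher, beside 20.8% and 15.6% of all genes tested.

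The promoters of this pair are shown because both genes were lower and their promoter windows share bases. Promoters were taken from RefSeq on GRCh38.p14 as 250 bases before to 50 bases after the start of the gene, with 35 of the 44 members matched. The COL4A5 window is chrX:108439588-108439887 on the plus strand and the COL4A6 window is chrX:108439409-108439708 on the minus strand. Capitals mark the 121 bases that both windows cover, read from opposite strands.
COL4A5: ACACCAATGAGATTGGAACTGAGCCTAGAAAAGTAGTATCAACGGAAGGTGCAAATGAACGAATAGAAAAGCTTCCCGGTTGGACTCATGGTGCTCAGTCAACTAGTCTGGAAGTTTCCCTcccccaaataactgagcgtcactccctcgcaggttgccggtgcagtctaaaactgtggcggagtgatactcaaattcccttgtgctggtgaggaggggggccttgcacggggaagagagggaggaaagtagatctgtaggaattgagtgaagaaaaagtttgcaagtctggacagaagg
COL4A6: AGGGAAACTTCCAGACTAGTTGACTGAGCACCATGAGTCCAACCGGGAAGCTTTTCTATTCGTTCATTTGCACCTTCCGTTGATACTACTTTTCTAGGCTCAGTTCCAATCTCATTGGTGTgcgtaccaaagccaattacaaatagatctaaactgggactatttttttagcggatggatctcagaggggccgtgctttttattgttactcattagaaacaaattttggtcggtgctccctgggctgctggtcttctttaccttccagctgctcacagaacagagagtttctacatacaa

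The fibril-associated collagen COL12A1 stood at 162 and 122 CPM in PC9 and at 55.0 and 62.1 CPM in PC9OR. Its log2 fold change of -1.28 ± 0.17 (SE, edgeR adjusted p = 0.00959), where genes of like length had -0.76, shrank to -0.43 with length offsets, where it still passed (edgeR adjusted p = 0.0247). COL13A1, a transmembrane collagen of adhesion sites, stood at 26.6 and 29.2 CPM in PC9 and at 11.0 and 10.7 CPM in PC9OR. Its transcript is shorter than those of most members, and its log2 fold change hardly moved between the fits (-1.36 and -1.31, edgeR adjusted p = 0.00627 and 0.00339, genes of like length 0.04). COL7A1, the collagen of anchoring fibrils, stood at 201 and 146 CPM in PC9 and at 116 and 97.9 CPM in PC9OR. Its difference (-0.70, edgeR adjusted p = 0.0433) was close to that of genes of like length (-0.67), and with length offsets it was -0.02 (edgeR adjusted p = 0.933). Its adjusted p was 0.111 and 0.243 without PC9OR replicate 1 or 2. COL5A1, a fibrillar collagen chain, stood at 10.0 and 6.24 CPM in PC9 and at 3.18 and 3.97 CPM in PC9OR (-1.18, edgeR adjusted p = 0.0429, genes of like length -0.60), and with length offsets it was -0.55 (edgeR adjusted p = 0.141). The COL5A1 call was lost without PC9 replicate 1 (adjusted p = 0.0600) and without PC9OR replicate 1 (0.179) or 2 (0.104).

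COL18A1 (chromosome 21, 46825080 to 46933634, plus strand, GRCh37), a basement membrane collagen whose end fragment is endostatin, stood at 47.9 and 40.6 CPM in PC9 and at 126 and 109 CPM in PC9OR. The groups lay apart by more than the gap within either. It was 2.66-fold higher, with a log2 fold change of 1.41 ± 0.15 (SE, edgeR adjusted p = 0.00627), against -0.27 for genes of like length, and 1.75 with length offsets. On the same chromosome, the type VI collagen chains COL6A1 and COL6A2 had negative values that did not pass the test. The values were -0.48 (edgeR adjusted p = 0.0551) and -0.39 (edgeR adjusted p = 0.0508), and -0.26 and -0.28 with length offsets. Both chains passed as lower with DESeq2's Wald test (adjusted p = 0.0158 and 0.0293). With length and GC offsets COL6A2 passed as lower (-0.32, edgeR adjusted p = 0.0332), and COL6A1 did not pass (-0.23, edgeR adjusted p = 0.0637). The tested genes flanking these 3 collagens, 10 on one side and 8 on the other, had medians of -0.09 and -0.20. Of those 18 genes 2 were called lower and 2 higher, beside 20.8% and 15.6% of all genes tested.

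The remaining collagens did not pass the test. COL4A1, the chain of type IV collagen found in nearly all basement membranes, was low at 5.93 and 4.26 CPM in PC9 and 3.09 and 3.50 CPM in PC9OR (-0.63, edgeR adjusted p = 0.143, and -0.22 with length offsets). The hemidesmosome collagen COL17A1 stood between 4.10 and 6.86 CPM over the 4 libraries (-0.42, edgeR adjusted p = 0.327, and -0.09 with length offsets). The fibrillar chains COL1A1 (0.219 to 0.406 CPM) and COL5A2 (0.375 to 0.867 CPM) were near the limit of detection in both lines.

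Of the 5 matrix glycoproteins, TNC was higher and FN1 lower in PC9OR cells, beside 15.6% and 20.8% of all genes tested. TNC (chromosome 9, 117781854 to 117880486, minus strand, GRCh37), which encodes tenascin-C, a glycoprotein of remodelled matrix, stood at 3.75 and 4.85 CPM in PC9 and at 22.0 and 23.1 CPM in PC9OR. It was 5.22-fold higher, with a log2 fold change of 2.39 ± 0.20 (SE, edgeR adjusted p = 0.00480) where genes of like length had a median of -0.62, and 2.98 with length offsets. Its level stayed low per length, at 1.78 and 1.83 FPKM in PC9OR beside 25.4 and 22.6 FPKM for FN1 in the same libraries. FN1, fibronectin, stood at 528 and 408 CPM in PC9 and at 288 and 258 CPM in PC9OR. Without offsets it was lower (-0.77, edgeR adjusted p = 0.0230, genes of like length -0.54), and with length offsets it did not pass (-0.22, edgeR adjusted p = 0.171). The FN1 call was also lost without PC9OR replicate 1 (adjusted p = 0.0961) or 2 (0.161).

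Thrombospondin THBS1 stood at 329 and 261 CPM in PC9 and 255 and 222 CPM in PC9OR (-0.31, edgeR adjusted p = 0.179, and 0.21 with length offsets). The microfibril protein FBN1 stood at 2.95 to 3.24 CPM over the 4 libraries, with a log2 fold change of -0.01 that became 0.83 with length offsets (edgeR adjusted p = 0.0689). SPARC, a collagen-binding protein of stroma, was near the limit of detection, at 0.104 to 0.563 CPM.

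HSPG2 (chromosome 1, 22148737 to 22263803, minus strand, GRCh37) encodes perlecan, the large heparan sulphate proteoglycan of basement membranes. It stood at 147 and 66.6 CPM in PC9 and at 14.5 and 13.6 CPM in PC9OR. The PC9 replicates were far from each other, and both were above the PC9OR replicates. Its log2 fold change was -2.93 ± 0.40 (SE, edgeR adjusted p = 0.00986), against -0.93 for genes of like length, and -1.86 with length offsets. Without PC9 replicate 1 it was -2.26. PC9 replicate 1 was also the PC9 library with the higher levels of long transcripts, and the part of this in the HSPG2 value was not tested beyond these fits. Agrin, AGRN, had overlapping groups at 214 and 149.7 CPM in PC9 and 163 and 136 CPM in PC9OR, with a log2 fold change of -0.28 that became 0.25 with length offsets. NID1, the nidogen that joins laminin to type IV collagen, had 1 count in PC9 replicate 1 and 0 in the other libraries, and was not tested.

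LOXL2, a lysyl oxidase that crosslinks collagen, stood at 169.7 and 117 CPM in PC9 and at 30.5 and 34.7 CPM in PC9OR. The groups did not overlap. LOXL2 had a log2 fold change of -2.13 ± 0.22 (SE, edgeR adjusted p = 0.00591), where genes of like length had a median of -0.05, and -1.96 with length offsets. LOX, its relative, stood at 17.4 to 19.0 CPM over the 4 libraries, with a log2 fold change of -0.10 (SE 0.14, edgeR adjusted p = 0.574), and 0.14 with length offsets.

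The promoters of COL18A1 and HSPG2 are shown because these basement membrane genes moved in opposite directions while their promoters are alike in composition. The COL18A1 window is chr21:45404915-45405214 on the plus strand, with a GC content of 86.67%. The HSPG2 window is chr1:21937261-21937560 on the minus strand, with 83.33%. Capitals mark GGGCGG, the core of the GC box bound by SP1, on either strand. It occurs 9 times in COL18A1 and 10 times in HSPG2 with overlapping matches counted.
COL18A1: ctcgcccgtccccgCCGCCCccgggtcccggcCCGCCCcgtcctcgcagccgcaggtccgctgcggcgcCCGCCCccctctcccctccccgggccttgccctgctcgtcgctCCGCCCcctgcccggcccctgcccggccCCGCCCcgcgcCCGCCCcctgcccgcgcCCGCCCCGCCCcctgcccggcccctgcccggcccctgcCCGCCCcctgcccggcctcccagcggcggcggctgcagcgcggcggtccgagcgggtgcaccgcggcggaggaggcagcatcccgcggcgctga
HSPG2: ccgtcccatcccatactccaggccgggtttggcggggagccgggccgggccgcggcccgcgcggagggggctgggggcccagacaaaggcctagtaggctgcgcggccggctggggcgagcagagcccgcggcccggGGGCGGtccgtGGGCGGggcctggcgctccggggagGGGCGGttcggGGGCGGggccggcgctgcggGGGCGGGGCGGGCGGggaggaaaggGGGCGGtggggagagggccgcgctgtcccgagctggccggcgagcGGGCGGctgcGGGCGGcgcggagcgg

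GGGCGG was present in 25 of the 35 member promoters (71.4%), in 8 of the 12 of lower members and in 3 of the 4 of higher members, beside 45.0% of all 35116 RefSeq promoters of this length. The AP-1 motif TGANTCA was present in 2 of 35 (5.71%) and the TEAD motif GGAATG in 6 of 35 (17.1%), beside 7.71% and 14.0% of all promoters. Both strands were searched, and a match describes the letters of the window only.

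Genes of the same pathway outside the set were read from lists. No list was tested as a set, and the shares of all genes tested that were called lower and higher stand beside each count. Of 10 tested genes of other laminins and basement membrane proteins, 7 were lower and 1 was higher (all genes 20.8% and 15.6%), and with length offsets 5 and 1 (18.4% and 20.0%). DST, dystonin, the linker of hemidesmosomes to keratin, stood at 1191 and 1002 CPM in PC9 and at 291 and 307 CPM in PC9OR (-1.88, edgeR adjusted p = 0.00402), though genes of its length had a median of -0.95. NTN4, a netrin that binds laminin, stood at 158 and 154 CPM in PC9 and at 66.8 and 62.2 CPM in PC9OR (-1.27, edgeR adjusted p = 0.00479). NTN1, another netrin, stood at 0.171 and 0 CPM in PC9 and at 17.5 and 14.9 CPM in PC9OR (edgeR adjusted p = 0.00547). NID2 had 34 counts over the PC9 libraries and 0 over those of PC9OR, and was at least 13.9-fold lower (edgeR adjusted p = 0.0254, and 0.0603 and 0.0564 without PC9OR replicate 1 or 2), taking 3 counts over the group as the floor.

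Among 11 other collagens tested, 2 were lower and 2 higher, as with length offsets (all genes 20.8% and 15.6%, or 18.4% and 20.0%). The type IV chains COL4A4 (16.5 and 13.9 CPM in PC9, 2.65 and 3.03 CPM in PC9OR) and COL4A3 (4.91 and 6.03 CPM, 1.65 and 0.782 CPM) were lower, with log2 fold changes of -2.42 and -2.16 (edgeR adjusted p = 0.00526 and 0.0214). COL4A3 was not called without PC9OR replicate 2 (adjusted p = 0.0707). COL8A1, a short-chain collagen of vessel walls and membranes, stood at 17.4 and 16.6 CPM in PC9 and at 86.8 and 86.0 CPM in PC9OR (2.34 ± 0.11 SE, edgeR adjusted p = 0.00249). COL11A2 was higher at low level, from 0.384 and 0.243 CPM to 1.28 and 1.09 CPM (edgeR adjusted p = 0.0350), a call lost without PC9 replicate 2 (adjusted p = 0.0655) or without PC9OR replicate 1 (0.249) or 2 (0.189). Of 6 other integrins tested, 1 passed: ITGA10, a collagen receptor subunit, at 0.768 and 0.416 CPM in PC9 and 2.40 and 1.59 CPM in PC9OR (edgeR adjusted p = 0.0453), a call lost without PC9 replicate 2 (0.0751) or without PC9OR replicate 1 (0.296) or 2 (0.118).

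Genes for collagen folding and crosslinking were lower in 6 and higher in 3 of 19 tested (all genes 20.8% and 15.6%). With length offsets the counts were 6 and 3 (18.4% and 20.0%), with 8 genes called in both fits. The share of all genes called in both fits was not counted. SERPINH1, the collagen chaperone, stood at 147 and 174 CPM in PC9 and at 366 and 346 CPM in PC9OR (1.15, edgeR adjusted p = 0.00686). LOXL4, a relative of LOXL2, stood at 3.54 and 3.78 CPM in PC9 and at 0.125 and 0.0313 CPM in PC9OR, 4 and 1 counts (edgeR adjusted p = 0.00682). Both PC9OR values of LOXL4 lay near the limit of detection.

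Of 18 matrix proteases and inhibitors tested, 7 were lower and 4 higher (all genes 20.8% and 15.6%), and with length offsets 6 and 4 (18.4% and 20.0%). The collagenases and relatives MMP9 (0.512 and 0.381 CPM in PC9, 7.40 and 5.72 CPM in PC9OR), MMP11 (0.171 and 0.555 CPM, 3.43 and 3.28 CPM) and MMP13 (0.0853 and 0.0693 CPM, 1.40 and 1.53 CPM) were higher, from levels near the limit of detection in PC9 (edgeR adjusted p = 0.00529, 0.0168 and 0.00831). MMP24, a membrane-bound protease, had 53.4 counts over the PC9 libraries and 0 over those of PC9OR, at least 21.8-fold lower (edgeR adjusted p = 0.0115).

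Focal adhesion adaptors and kinases were lower in 9 and higher in 2 of 23 tested (all genes 20.8% and 15.6%), and with length offsets in 8 and 5 (18.4% and 20.0%). TNS4, a tensin that binds integrin tails, stood at 176 and 74.2 CPM in PC9 and at 11.7 and 10.6 CPM in PC9OR (-3.49, edgeR adjusted p = 0.00866). ZYX, zyxin, stood at 205 and 88.7 CPM in PC9 and at 28.1 and 24.6 CPM in PC9OR (-2.48, edgeR adjusted p = 0.0140). Both had PC9 replicates far from each other, and without PC9 replicate 1 their log2 fold changes were -2.74 and -1.76. PARVA, parvin, stood at 81.3 and 63.7 CPM in PC9 and at 17.6 and 17.1 CPM in PC9OR (-2.06, edgeR adjusted p = 0.00457). Paxillin, PXN, stood at 158 and 81.4 CPM in PC9 and at 48.9 and 50.0 CPM in PC9OR (-1.27, edgeR adjusted p = 0.0353), and was not called without PC9OR replicate 1 (0.0675) or 2 (0.0600).

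Other matrix glycoproteins and proteoglycans were lower in 6 and higher in 2 of 19 tested (all genes 20.8% and 15.6%), and with length offsets in 5 and 2 (18.4% and 20.0%). LTBP3, which stores latent TGF-beta in the matrix, stood at 124 and 77.7 CPM in PC9 and at 29.5 and 24.9 CPM in PC9OR (-1.89, edgeR adjusted p = 0.00959). FBLN1, fibulin, stood at 84.2 and 51.7 CPM in PC9 and at 25.6 and 24.7 CPM in PC9OR (-1.43, edgeR adjusted p = 0.0151). TGFBI, an integrin ligand, stood at 562 and 566 CPM in PC9 and at 254 and 228 CPM in PC9OR (-1.23, edgeR adjusted p = 0.00533). FBN2, a microfibril protein, stood at 1.49 and 1.73 CPM in PC9 and at 0.531 and 0.156 CPM in PC9OR (edgeR adjusted p = 0.0499). FBN2 did not pass with length offsets (edgeR adjusted p = 0.137) or with any 1 library left out (0.0589 to 0.245).

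**Figure D5:**
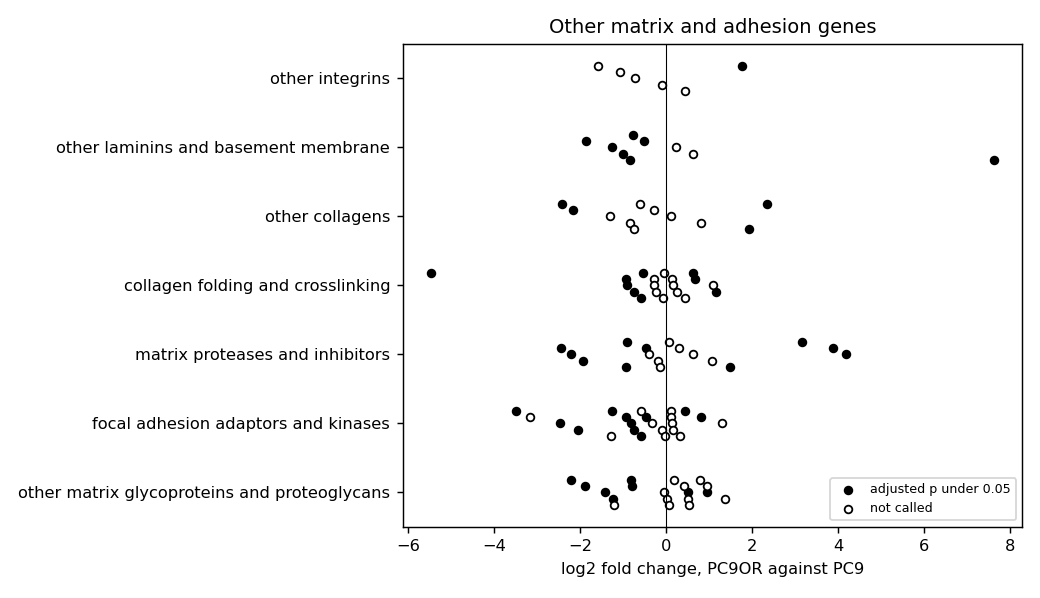
Log2 fold change, PC9OR minus PC9, of each tested gene in 7 lists of related genes, with filled points for genes that passed the test and open points for those that did not, leaving out NID2 and MMP24, whose PC9OR libraries were both at 0. NTN1 has the highest value and LOXL4 the lowest, and each list holds genes on both sides of 0.

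Markers of epithelium and of other cell types were read in the same libraries. The summed level of 6 epithelial markers was 5755 to 6655 CPM in PC9 and 12209 to 12397 CPM in PC9OR. Keratins carried this rise, with KRT8 at 1585 and 1879 CPM in PC9 and 4189 and 4226 CPM in PC9OR (1.28, edgeR adjusted p = 0.00568), while CDH1, E-cadherin, was lower (463 and 338 CPM, 151 and 139.9 CPM, -1.46, edgeR adjusted p = 0.00814). The 6 fibroblast markers summed to 1.25 to 1.34 CPM in all 4 libraries, so the defining genes of fibroblasts were near the limit of detection. Of the endothelial markers, CDH5 stood at 34.7 and 24.0 CPM in PC9 and 5.06 and 4.78 CPM in PC9OR, while VWF had 0 counts in PC9. Of the leukocyte markers, PTPRC was at 0 or 0.0427 CPM, and CD68 gave the rest of a sum of 6.32 to 15.6 CPM.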

How the data were processed

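RNA of 2 PC9 and 2 PC9OR cultures was sequenced, and the labels give line and replicate number of each library. The authors filtered reads with SOAP, and the submitters' processing notes name Bowtie2 2.2.5, RSEM 1.2.12 and GRCh37. For each gene the authors deposited an expected count (an estimated read number, not normalized), an FPKM value (scaled by length and library size) and an isoform-weighted transcript length. Whether counting used strand is not given in the sources used here. Symbols were found for 99.74% of 16813 genes, and positions come from GENCODE lifted to GRCh37.

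Genes were named from Entrez identifiers. After rounding of the expected counts, edgeR 4.0.16 under R 4.3.3 was run with filterByExpr, TMM, estimateDisp, glmQLFit and the two-sided glmQLFTest, with p adjusted by Benjamini-Hochberg over all genes tested and called under 0.05. Standard errors were derived from the edgeR test, as the absolute log2 fold change divided by the square root of its F statistic. CPM used TMM-scaled library sizes. Library sums ran from 23201307 to 32203998, and 3 counts were taken as the smallest detected value. A gene not listed in a library was taken as 0. Length offsets were per-library smooth curves fitted with mgcv 1.9.3. Tests were checked on simulated data in which all libraries were given the same spread, unlike the libraries of these lines. Further alternatives were GC offsets, DESeq2 1.42.0, library totals, limma 3.58.1 on log2(FPKM + 1) and log2(FPKM + 0.1), filters, the replicate block, a stricter threshold and each library left out.

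The members and lists were chosen with earlier results of these data known. All members were named, and of the other lists at most 4 called genes over 2-fold, by size of change. KRT8, CDH1, CDH5, VWF, PTPRC and CD68 were named from the marker lists after their values were seen. Protein sequences were planned and replaced by promoters after the data were examined. DEGseq, which the study used, was not run.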

Additional observations from a re-analysis of the deposited data

How the results depend on the processing

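Each line had 2 replicates, and the labels call them biological without saying how the cultures were separated. The p-values set the difference between lines against the spread among replicates of these libraries only. In the edgeR fits that spread was shared between the lines for each gene, although the PC9 replicates varied more. Without offsets 4 members were higher and 14 lower (15.6% and 20.8% of all genes tested). The members higher and lower were 7 and 10 with length offsets (all genes 20.0% and 18.4%), 9 and 12 with length and GC offsets (22.3% and 19.9%), and 8 and 10 with length offsets and the replicate block (23.9% and 19.7%). At over 2-fold and an adjusted p under 0.001 the count was 0 for either direction, as for all 13148 genes in edgeR's quasi-likelihood test, of which 6653 had an unadjusted p under 0.05. Leaving out 1 library gave 4 to 5 higher and 9 to 25 lower members, the lowest without either PC9OR replicate and the highest without PC9 replicate 2, where the lone library of a line is assumed to vary like the other line. Of all genes tested, 8.70% and 8.82% were lower without PC9OR replicate 1 or 2, and 28.9% without PC9 replicate 2. The share of all genes called higher was far smaller without either PC9OR replicate than without either PC9 replicate. The near-constant count of higher members in these fits thus does not stand for a steady share of calls. The other settings gave 4 higher and 14 to 20 lower members, the most with DESeq2's Wald test. Over all genes those settings called 11.0% to 19.7% higher and 15.1% to 22.5% lower, and the Wald test 14.3% and 17.8%. The lower members added with the Wald test were ITGAV, ITGB1, ITGB4, ITGB6, COL6A1 and COL6A2. The cause of these shifts was not tested.

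Deviations of same-numbered replicates from their line means had a correlation of 0.0553, so the numbers were not taken to pair the libraries. With the replicate block 4 members were higher and 16 lower, beside 19.7% and 22.4% of all genes tested.

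Of 609 log2 fold changes of members under another setting, 501 kept direction and side of the threshold, 26 lost the call, 50 gained one and 35 changed sign, 3 of which also lost or gained a call. Among called members the sign changed for COL7A1 only, at 0.0035 with length and GC offsets. The other sign changes were of members not called without offsets, and of these LAMA3 and LAMC1 passed as higher with length and GC offsets. In the order length offsets, length and GC offsets, length offsets with the replicate block, the values were 0.30, 0.40 and 0.30 for LAMA3, 0.24, 0.35 and 0.24 for LAMC1, 0.083, 0.20 and 0.043 for COL1A1, 0.25, 0.20 and 0.25 for AGRN, 0.21, 0.30 and 0.20 for THBS1, and 0.83, 0.88 and 0.83 for FBN1. With length offsets and with the block added, they were 0.091 and 0.11 for ITGAV and 0.14 and 0.15 for LOX. With length and GC offsets they were 0.065 for LAMB3, 0.088 for COL5A2 and 0.083 for COL17A1. For ITGA6 limma gave -0.026 at both pseudocounts. With 1 library left out, values ran from -0.15 to 0.51 for ITGA3, -0.040 to 0.057 for ITGA6, -0.024 to 0.16 for LAMB2, -0.79 to 0.092 for COL1A1, -0.17 to 2.21 for SPARC and -0.099 to 0.048 for FBN1. Depth limits COL1A1, COL5A2, SPARC and NID1, which had few counts per library.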
